A study of Mus musculus with 13 samples.

Results

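Fgf7, Fgf10, Hgf, Igf1, Wnt2, Wnt5a, Bmp4, Bmp5, Tgfb1 and Tgfb2, secreted growth factors that act in alveolar repair, were followed across the cell classes of mouse lung single-cell RNA sequencing libraries. These 10 of the 31053 genes in the deposited count matrix were chosen by gene symbol. The study compared lung cells of C57BL/6 mice under 4 labels, with 1 mouse and 1 sample each. PPE-emphysema mice received porcine pancreatic elastase into the trachea every week and were killed soon after the last dose, and Control mice were instilled on the same schedule. PPE-recovery mice received a single dose and were left to recover, and Asthma mice were sensitized to and then challenged with ovalbumin. The labels name no allele for these mice, and all lungs were dissociated with protease. The other 9 samples (Con, acute injury and emphysema, 3 each) were not analysed here.

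The matrix numbers its 7 libraries but no source used here says which library is which label. Libraries 1, 2, 3 and 7 held lung cells, with the type 2 cell gene Sftpc at 2674 to 9212 unique molecular identifiers (UMIs, counted transcript molecules) per 1e6 UMIs. Libraries 4, 5 and 6 had Sftpc at 0.066 or below and were rich in hemoglobin, with Hba-a1 at 77157 to 94584, and were left out of the comparisons. All values below are therefore for library numbers, not for disease groups, and no P value was computed because libraries without labels are not replicates. Cells were kept where mitochondrial transcripts made up at most 10% of UMIs, which left 20856 of 24344 barcodes in those 4 libraries (4800, 7626, 5129 and 3301 in libraries 1, 2, 3 and 7). They held 199782940 UMIs, with a median of 7542.5 UMIs and 2593 genes per cell. Pairs of these libraries shared 3 to 15 cell barcodes, at most 0.292% of the smaller library.

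Mesenchymal cells are known to feed type 2 cells, the progenitors of the alveolar epithelium, with FGF7 and FGF10 through the receptor FGFR2b, with HGF through MET, and with canonical WNT signals. BMP and TGF-beta ligands restrain proliferation and shape differentiation and matrix, and IGF1 is a trophic factor made by fibroblasts and by macrophages. TGF-beta is released in a latent form that must be activated in the matrix.

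Cells were clustered without the 10 genes or their pathway genes, so that their levels did not define the classes. Of 50 clusters, 46 took a name from marker genes, giving 28 classes, and 617 cells in 4 clusters stayed unnamed. Names mean "like" that cell type. Of 147 marker genes of these classes, 137 were highest in their own class, a count that naming by the same markers favors. The study named as eosinophils clusters with Ccr3 and Epx, but also with C1qa, Ms4a7, C3ar1, Rnase2a and Ctsl. It also related these clusters to bulk RNA sequencing of sorted eosinophils. In tissue it reported Rnase2a, C1qa and Alox15 RNA in cells stained for the eosinophil protein ECP. Sorted cells and tissue sections were not examined here. Here Ccr3 (1110 CPM) and Epx (12.1 CPM) were highest in the eosinophil class. That class held only 164832 UMIs, so its Epx level rests on very few counts. C1qa, Ms4a7 and C3ar1 were among the leading genes of C1q macrophages, and Rnase2a, Ctsl and C3ar1 of an Arg1 macrophage cluster. Which classes hold the study's eosinophils was not tested. The mesenchymal classes were alveolar fibroblasts (1680 cells), smooth muscle cells (254), adventitial fibroblasts (220), mesothelial cells (97) and pericytes (77), 2328 cells in all, against 5126 macrophages. Levels are UMIs of the gene per 1e6 UMIs of the class (counts per 1e6, CPM) with exact 95% Poisson intervals, which cover counting error only. The counts come from transcript 3′ ends, so levels are compared between classes for 1 gene and not between genes.

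Of the 10 genes, 7 reached their highest level in a mesenchymal class, beside 21.3% of the 14885 genes with at least 100 UMIs. The 10 genes were chosen with earlier results of these data known, so the comparison is a description and not a test. Alveolar fibroblasts were highest for Fgf7, Fgf10, Wnt2 and Bmp5, adventitial fibroblasts for Wnt5a and, by a margin inside the counting error, Igf1, and mesothelial cells for Tgfb2. The exceptions were Bmp4 (large-vessel endothelial cells), Hgf (basophils or mast cells) and Tgfb1 (classical monocytes).

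**Figure D1:**
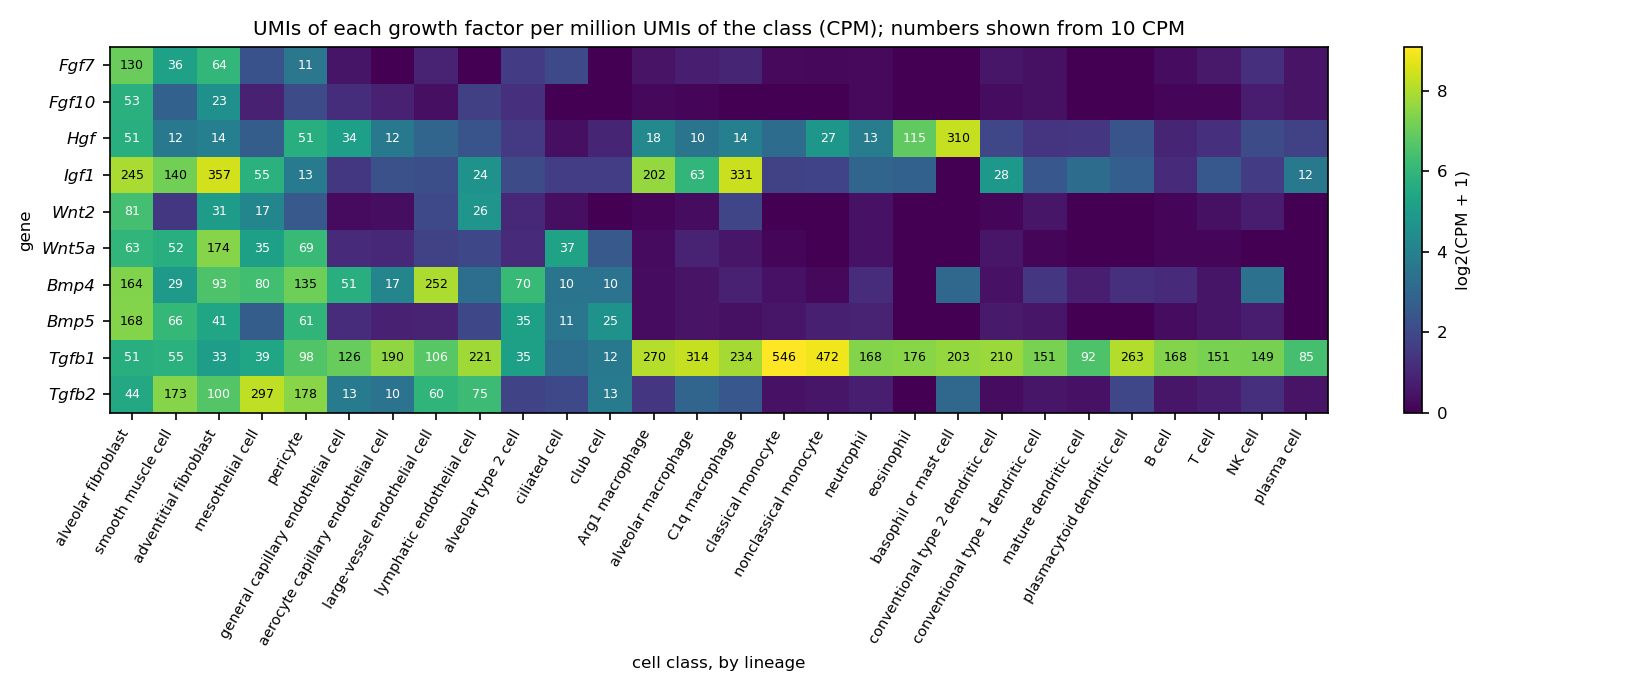
Level of each growth factor (rows) in the 28 named cell classes (columns, ordered by lineage), as color on the log2(CPM + 1) scale with the CPM printed from 10 upward. Fgf7, Fgf10 and Wnt2 are bright mainly in the mesenchymal columns, Igf1 is bright in fibroblasts and macrophages, and Tgfb1 is bright in nearly every immune class, peaking at 546 CPM in classical monocytes.

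The start regions of the 4 genes that peaked in alveolar fibroblasts are shown beside that of Tgfb1, which was found in nearly all classes, because the levels of these genes peaked in different lineages. Each is the stretch of up to 250 bases before the RefSeq start (GRCm38.p6, table built for that assembly, read 5′ to 3′ on the gene's strand), without bases that a GENCODE M21 exon covers. Capitals mark a CCAAT motif, a GGGCGG motif or a TATAAA motif on either strand.
Fgf7, chr2:126034408-126034657, plus strand: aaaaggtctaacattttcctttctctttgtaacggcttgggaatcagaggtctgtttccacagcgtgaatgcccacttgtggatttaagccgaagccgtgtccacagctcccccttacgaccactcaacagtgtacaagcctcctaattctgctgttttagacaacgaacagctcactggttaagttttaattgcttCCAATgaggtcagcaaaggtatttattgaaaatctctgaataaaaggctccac
Fgf10, chr13:118714449-118714698, plus strand: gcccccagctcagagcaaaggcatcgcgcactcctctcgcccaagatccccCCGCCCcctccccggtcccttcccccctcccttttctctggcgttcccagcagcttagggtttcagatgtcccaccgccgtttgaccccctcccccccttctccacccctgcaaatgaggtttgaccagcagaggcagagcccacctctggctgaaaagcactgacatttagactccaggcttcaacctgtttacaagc
Wnt2, chr6:18030586-18030695, minus strand: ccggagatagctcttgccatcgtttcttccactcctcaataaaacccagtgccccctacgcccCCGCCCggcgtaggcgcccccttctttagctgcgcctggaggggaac
Bmp5, chr9:75775115-75775363, plus strand: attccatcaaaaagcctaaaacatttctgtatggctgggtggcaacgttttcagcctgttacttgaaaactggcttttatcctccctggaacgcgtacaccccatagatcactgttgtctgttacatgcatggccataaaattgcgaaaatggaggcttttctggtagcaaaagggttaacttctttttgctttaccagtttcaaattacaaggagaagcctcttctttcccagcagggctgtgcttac
Tgfb1, chr7:25686752-25687001, plus strand: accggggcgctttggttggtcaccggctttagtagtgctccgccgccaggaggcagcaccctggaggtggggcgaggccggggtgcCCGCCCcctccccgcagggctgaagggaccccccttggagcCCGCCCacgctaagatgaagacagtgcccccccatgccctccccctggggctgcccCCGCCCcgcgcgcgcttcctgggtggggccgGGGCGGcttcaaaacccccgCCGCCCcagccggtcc
The Tgfb1 stretch was 75.2% G or C and held GGGCGG 5 times on either strand. Those of Fgf7 and Bmp5 were 43.6% and 43.0% G or C and held no GGGCGG, while Fgf10 and Wnt2, at 61.2% and 62.7%, held it once each. Fgf7 alone of the 5 held CCAAT. Among 32851 promoters of 250 bases in the same table, 32.7% held GGGCGG, 33.8% CCAAT and 12.4% TATAAA, which none of the 5 held, with a median of 52.4% G or C. Such stretches could be read for 8 of the 10 genes. All bases of the Igf1 window lay in exons, and the Wnt5a start was not used here. The Fgf10 start used lies inside the longer gene that GENCODE draws (chr13:118669791-118792115).

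Fgf7, on chromosome 2 (126034658 to 126091185), encodes keratinocyte growth factor, a mitogen of type 2 cells. It stood at 129.6 CPM (124.6 to 134.9) in alveolar fibroblasts, 63.8 in adventitial fibroblasts and 36.3 in smooth muscle cells, and at 11.2 or below elsewhere. The smooth muscle class held 40 cells that looked like myofibroblasts when mesenchymal cells were clustered alone, and smooth muscle cells of that clustering had Fgf7 at 18.6 CPM. Alveolar fibroblasts held 87.7% of its 2810 UMIs and all mesenchymal classes 96.6%. Fgf10, on chromosome 13, the FGF that drives lung budding in the embryo, followed the same order. It stood at 53.1 CPM (49.9 to 56.5) in alveolar fibroblasts, 22.8 in adventitial fibroblasts and 6.12 in smooth muscle cells. The 156 smooth muscle cells found when mesenchymal cells were clustered alone had Fgf10 at 2.86. Alveolar fibroblasts held 88.8% of the 1136 Fgf10 UMIs. Across the 28 classes, whose levels share libraries and depth, Fgf7 and Fgf10 had a Pearson correlation of 0.908 on the log2(CPM + 1) scale. The genes most like Fgf7 were Kcne4 (0.967), Gpr153 (0.960) and 1700021F13Rik (0.955), and those most like Fgf10 were the complement gene C7 (0.963), Srpx2 (0.960) and Dpep1 (0.959).

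Wnt2, on chromosome 6 (17988940 to 18030585), a canonical WNT ligand needed for lung specification, was highest in alveolar fibroblasts at 81.5 CPM (77.5 to 85.6), which held 87.7% of its 1765 UMIs. Its next classes were adventitial fibroblasts (31.3), lymphatic endothelial cells (25.8, 18.7 to 34.6) and mesothelial cells (17.3), whose intervals overlapped neighbor by neighbor. Lymphatic endothelial cells were thus the only named class outside the mesenchyme above 3 CPM. Wnt5a, on chromosome 14, a mainly noncanonical ligand, had another order. Adventitial fibroblasts at 174 CPM (157.5 to 190.9) stood above pericytes (69.0), alveolar fibroblasts (62.8) and smooth muscle cells (52.0). Clustering mesenchymal cells alone gave 156 smooth muscle cells with Wnt5a at 7.87 CPM and 41 myofibroblast-like cells with 325. Because alveolar fibroblasts were far more numerous, they still held 58.3% of Wnt5a UMIs and adventitial fibroblasts 20.8%. Ciliated cells, an airway epithelial class, carried Wnt5a at 36.9 CPM (30.6 to 44.1). The genes most like Wnt2 across classes were Syn2 (0.940), Serpina3n (0.917) and Fxyd6 (0.911), and most like Wnt5a were Pcolce (0.958), Cacna2d1 (0.9503) and Gm32618 (0.949).

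Bmp5, on chromosome 9 (75775364 to 75900310), was highest in alveolar fibroblasts at 168 CPM (161.8 to 173.5), with smooth muscle cells (66.4), pericytes (60.97) and adventitial fibroblasts (41.1) behind. It was also found in type 2 cells (35.2, 30.9 to 40.0) and club cells (24.6), so that epithelial classes held 9.11% of its UMIs. The gene most like it was another BMP ligand, Bmp3 (0.962), followed by AI464131 (0.939) and Epha1 (0.939). Bmp4, on chromosome 14 (46383520 to 46390669), peaked instead in large-vessel endothelial cells at 252 CPM (235.8 to 270.1). Alveolar fibroblasts (164), pericytes (135), adventitial fibroblasts (92.7), mesothelial cells (80.1) and type 2 cells (69.5, 63.4 to 76.1) followed. The mesothelial value was mixed. When mesenchymal cells were clustered alone, Bmp4 was 51.6 CPM (38.0 to 68.4) in 55 mesothelial cells. It was 146 (111.5 to 187.2) in 40 cells like alveolar type 1 cells, of which 38 came from the mesothelial class. By share of its 5908 UMIs, alveolar fibroblasts led with 52.8%, while the endothelial classes held 27.7% and the epithelial classes 9.16%. The epithelial share leaves out those type 1-like cells. The large-vessel class may not stand for all large vessels. Of its markers Vwf, Slc6a2 and Selp were highest there, but Gja5 (48.3 CPM) and Hey1 (45.0) were higher in other classes. Ppic (0.939) and Antxr1 (0.929) were among the genes most like Bmp4.

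Tgfb2, on chromosome 1 (186622792 to 186705989), and Tgfb1, on chromosome 7 (25687002 to 25705077), encode related ligands that were highest in different lineages. Tgfb2 was highest in mesothelial cells at 297 CPM (267.6 to 328.2), then pericytes (178) and smooth muscle cells (173), and stood at 44.2 in alveolar fibroblasts. The mesothelial class was mixed: when mesenchymal cells were clustered alone, 38 of its 97 cells fell in a cluster led by Ager, Cldn18 and Aqp5, markers of alveolar type 1 cells, and Tgfb2 was 364 CPM in the 55 mesothelial cells of that clustering against 151 in its 40 type 1-like cells. The 2 clusters named pericyte in that clustering had 395 (44 cells) and 161 (34 cells). The smaller one was mixed, with 12 of its cells from the smooth muscle class. Marker genes of general capillary endothelial cells scored higher in it (2.66) than those of pericytes (1.76), although Cox4i2 and Higd1b were among its leading genes. Ndn (0.936), Evc2 (0.924) and Cdc42ep5 (0.918) were most like Tgfb2. Tgfb1 was highest in classical monocytes at 546 CPM (532.2 to 560.1) and nonclassical monocytes at 472, with alveolar macrophages at 314 and Arg1 macrophages at 270.0. It stood at 51.5 CPM in alveolar fibroblasts, rank 23 of the 28 classes. In the 1181 alveolar fibroblasts found when mesenchymal cells were clustered alone it stood at 30.6. Mesenchymal classes held 3.12% of its 41565 UMIs. Crlf2 (0.912), Fkbp15 (0.894) and Arpc3 (0.879) were most like Tgfb1.

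Hgf, on chromosome 5 (16553495 to 16620152), the ligand of MET, had no single source. Its level was highest in the 87 basophils or mast cells at 309.7 CPM (258.4 to 368.2), on 128 UMIs, then in eosinophils at 115 (69.4 to 180.0), on 19 UMIs in 244 cells whose median was 555 UMIs per cell. Of these eosinophils 212 came from library 7. Alveolar fibroblasts (51.5) and pericytes (51.3) came next, then general capillary endothelial cells (34.1) and nonclassical monocytes (27.5). By number of UMIs the order turned over: mesenchymal classes held 32.6% of 3312 Hgf UMIs, macrophages 31.7%, endothelial classes 16.5% and the basophil or mast class 3.86%. Its closest genes were less alike than those of the other members, namely Zbtb34 (0.806), Adnp2 (0.798) and Fhod1 (0.784).

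Igf1, on chromosome 10 (87858265 to 87937042), had 2 lineages as sources. Adventitial fibroblasts at 357 CPM (333.8 to 381.4) and macrophages marked by C1q at 331 (319.4 to 343.5) could not be told apart by their intervals, and alveolar fibroblasts at 245, macrophages marked by Arg1 at 202 and smooth muscle cells at 140 followed, each interval below the one before. When mesenchymal cells were clustered alone, the 41 myofibroblast-like cells had 740.4 CPM and the 156 smooth muscle cells 26.5. Alveolar macrophages stood at 62.9 CPM and both monocyte classes at 2.56 or below. Macrophages held 64.1% of the 18783 Igf1 UMIs, Arg1 macrophages by themselves 41.4%, and mesenchymal classes held 31.6%. Klhl33 (0.850), Cxcl1 (0.846) and Clmp (0.840) were most like Igf1.

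B cells, which are not known as a source of these ligands apart from Tgfb1, served as background. The 9 other genes stood at 1.12 CPM or below in 1431 B cells, and Tgfb1 at 168. At unequal depth a share of cells is hard to read, so the cells were also thinned to 1500 UMIs each, leaving out shallower ones. Fgf7 was found in 65.8% of alveolar fibroblasts and 0.140% of B cells, at median depths of 10850.5 and 4063 UMIs, and after thinning in 18.8% of 1509 alveolar fibroblasts. Igf1 was found in 68.6% of adventitial fibroblasts and 62.8% of C1q macrophages before thinning and in 31.6% and 33.1% after it, with B cells at 0.699% and 0.356%. Of 8 members other than Hgf and Tgfb1, a single alveolar fibroblast most often held 5 (21.4% of 1680 cells), and 2.26% held all 8.

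Whether the members shared cells was read as the number of alveolar fibroblasts with both genes over the number expected if each were found independently within each library. Unthinned, the interval lay above 1 for 39 of 45 pairs. At a depth of 1500 UMIs it did so for 2 pairs and lay below 1 for 1 pair, and among 45 intervals of 95% a few would leave out 1 for independent genes too. Fgf7 and Igf1 were found together in 96 cells where 68.3 were expected (1.41 times, 1.14 to 1.72), and Fgf10 and Tgfb2 in 15 where 8.18 were expected (1.83 times, 1.03 to 3.02). Igf1 and Wnt2 were the pair below, with 28 cells where 41.8 were expected (0.669 times, 0.445 to 0.967).

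**Figure D2:**
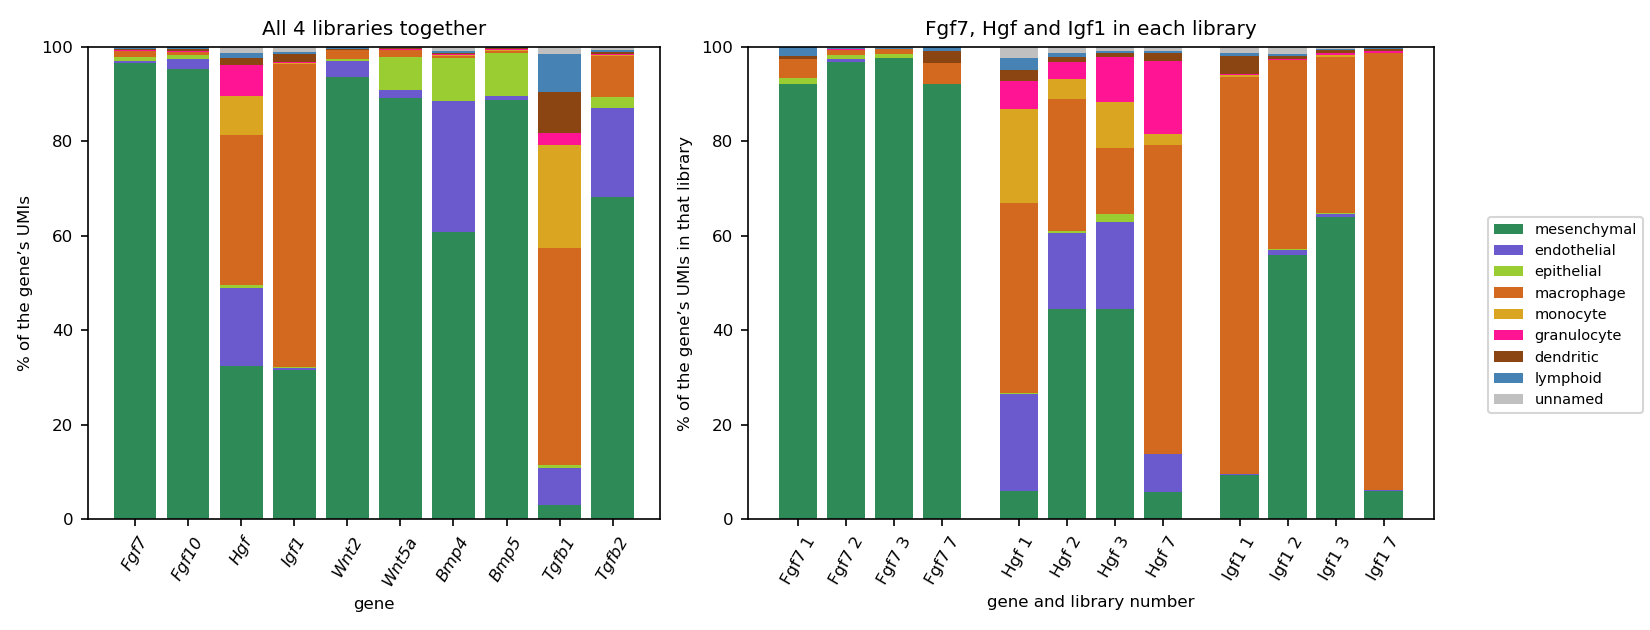
Share of each gene's UMIs (percent, stacked bars) that came from each lineage, for all 4 libraries together (left) and for Fgf7, Hgf and Igf1 in each library (right). The mesenchymal share of Fgf7 is near the top in every library, whereas the macrophage share of Igf1 runs from 33.2% in library 3 to 92.4% in library 7.

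The 4 libraries differed widely in the total level of most members. Fgf7 was 3.36, 23.3, 16.9 and 3.48 CPM of the whole library in libraries 1, 2, 3 and 7, and Fgf10 was 1.77, 8.57, 8.16 and 1.05. Wnt2 (2.43, 12.9, 13.8 and 1.56), Wnt5a (4.49, 15.5, 12.6 and 2.88), Bmp4 (10.55, 46.7, 33.0 and 11.5), Bmp5 (5.04, 31.7, 24.9 and 4.62) and Tgfb2 (5.93, 21.1, 18.7 and 5.08) had the same split, with libraries 2 and 3 high and libraries 1 and 7 low. The number of mesenchymal cells had it too, with 142, 1479, 622 and 85 cells. A level worked out from each library's makeup of classes and the pooled level of each class was compared with the observed one. The observed level was 0.707 to 1.52 times as high for these 7 genes, in all 4 libraries. Pooled levels include the library itself. Library 2 held 12582536 of the 18999915 alveolar fibroblast UMIs, so its ratio is drawn toward 1 by the way it is made. Igf1 did not follow these 7 genes, at 137, 99.0, 30.9 and 109 CPM, which was 1.46 times the level from makeup in library 1 and 0.482 times in library 3. Tgfb1 (233, 178, 242 and 198) and Hgf (13.8, 20.4, 16.1 and 12.04) were less far apart.

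The source of Igf1 and Hgf also moved. Macrophages held 84.0%, 39.9%, 33.2% and 92.4% of Igf1 UMIs in libraries 1, 2, 3 and 7, and mesenchymal classes held 9.34%, 56.1%, 64.0% and 6.12%. For Hgf the macrophage share was 40.3%, 28.0%, 13.9% and 65.3%, and the mesenchymal share 6.07%, 44.6%, 44.5% and 5.74%. In library 7 granulocytes held a further 15.5% of Hgf UMIs. Wnt2 had 89.1%, 93.7% and 96.6% of its UMIs in the mesenchyme in libraries 1, 2 and 3, but in library 7, with 52 UMIs, the shares were 69.2% for mesenchymal classes and 30.8% for macrophages.

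Within a class, libraries were called apart where the highest and the lowest were at least 2-fold apart with intervals that did not overlap, in genes with at least 50 UMIs and libraries with at least 20 cells of the class. In their own highest class, 2 of the 10 genes were called, Wnt2 and Bmp4. The share of all genes called was 15.3% in alveolar fibroblasts, the class of Fgf7, Fgf10, Wnt2 and Bmp5, 10.7% in large-vessel endothelial cells (Bmp4), 3.14% in adventitial fibroblasts (Igf1 and Wnt5a, libraries 2 and 3 only), 8.98% in mesothelial cells (Tgfb2, libraries 2 and 3), 14.1% in basophils or mast cells (Hgf, libraries 1 and 2) and 10.1% in classical monocytes (Tgfb1). With 10 genes, a count of 2 is not clearly apart from these shares.

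In alveolar fibroblasts (91, 1120, 414 and 55 cells in libraries 1, 2, 3 and 7) Wnt2 was 94.3, 69.6, 116 and 47.5 CPM, 2.43-fold higher in library 3 than in library 7. Fgf7, by contrast, held at 122, 125, 140.5 and 151 CPM, 1.24-fold from lowest to highest with intervals of libraries 1 and 7 that overlapped. Bmp5 (149, 164, 186 and 144) and Bmp4 (129, 166, 171 and 129.6) were likewise under 1.5-fold apart. Fgf10 was 67.4, 46.7, 68.3 and 44.6 CPM. Libraries 1 and 7 had the lowest Hgf, at 30.8 and 27.4 CPM against 50.6 and 61.9 in libraries 2 and 3, and library 1 the highest Wnt5a, at 117 against 60.9, 53.8 and 76.3. Both were called, at 2.26-fold and 2.18-fold. In the 1181 alveolar fibroblasts found when mesenchymal cells were clustered alone, Wnt5a was no longer called, at 1.79-fold. In large-vessel endothelial cells Bmp4 was 117, 273, 324 and 301 CPM, so that library 1 stood apart from the others at 2.77-fold below library 3. Bmp4 was lowest in library 1 in general capillary endothelial cells as well, where 14.1% of genes were called, with 3.34 times as much in library 7. Tgfb2 was called outside its highest class in smooth muscle cells (2.70-fold, library 2 highest) and in alveolar macrophages (4.93-fold, 10.3 CPM in library 3 and 2.08 in library 7). Bmp4 was also called in smooth muscle cells, where library 1 held 1 UMI, at 2.62-fold against 3 UMIs.

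**Figure D3:**
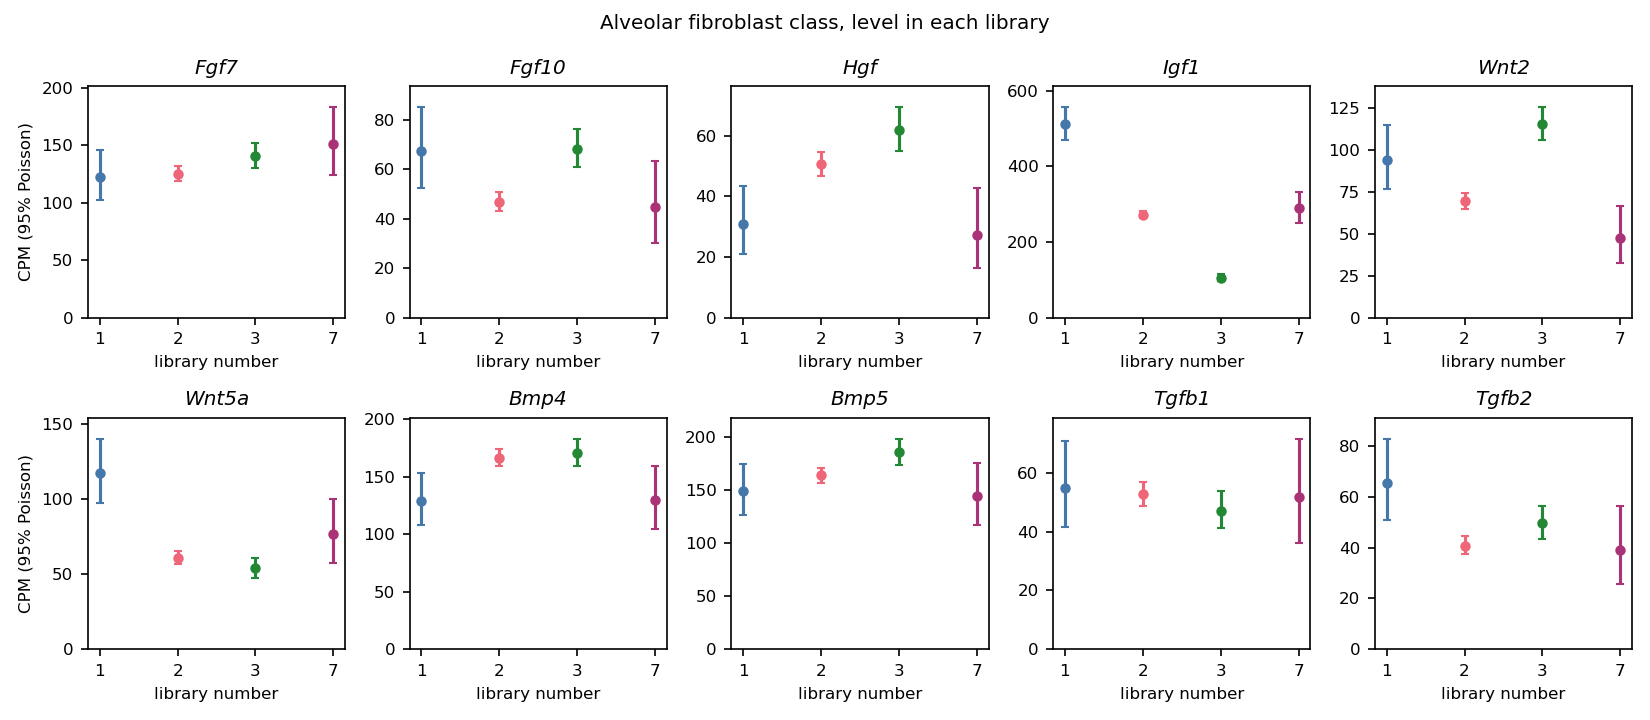
Level of each growth factor in the alveolar fibroblast class by library number (points, CPM; bars, exact 95% Poisson intervals; each panel has its own axis from 0). Igf1 falls from 511 in library 1 to 106 in library 3 while Wnt2 is highest in library 3, and Fgf7 stays between 122 and 151.

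Igf1 was lower in library 3 in the fibroblasts and in the macrophages. In alveolar fibroblasts it was 511 (468.4 to 556.3), 272, 106 (96.8 to 115.6) and 289 CPM, a 4.82-fold range. In C1q macrophages it was 462, 257, 194 and 227 CPM (2.38-fold, against 14.7% of genes called there), and in Arg1 macrophages 277, 126, 63.5 and 216 (4.36-fold, against 12.9%), the third value resting on 22 cells. In alveolar macrophages it was 118, 95.7, 21.5 (18.8 to 24.5) and 112 CPM, which is 5.498-fold, where 14.0% of genes were called. Adventitial fibroblasts had 396 CPM in library 2 and 305 in library 3. Library 3 was thus the lowest of the libraries compared in all 5 classes, although in C1q macrophages its interval (169.3 to 222.1) overlapped that of library 7. In adventitial fibroblasts only libraries 2 and 3 had enough cells, and they were 1.30-fold apart and not called. Smooth muscle cells were the exception, with 39.4, 176 and 64.3 CPM in libraries 1, 2 and 3 (4.48-fold, against 9.42% of genes). The intervals of libraries 1 and 3 overlapped, so which of them was lowest is not resolved. This class had 321 Igf1 UMIs with its myofibroblast-like cells included. The myofibroblast-like cluster described below, almost all from this class, had 205 Igf1 UMIs in 41 cells. Of these cells 3, 27 and 11 came from libraries 1, 2 and 3. B cells had 0.503, 3.79, 0.449 and 0.353 CPM.

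**Figure D4:**
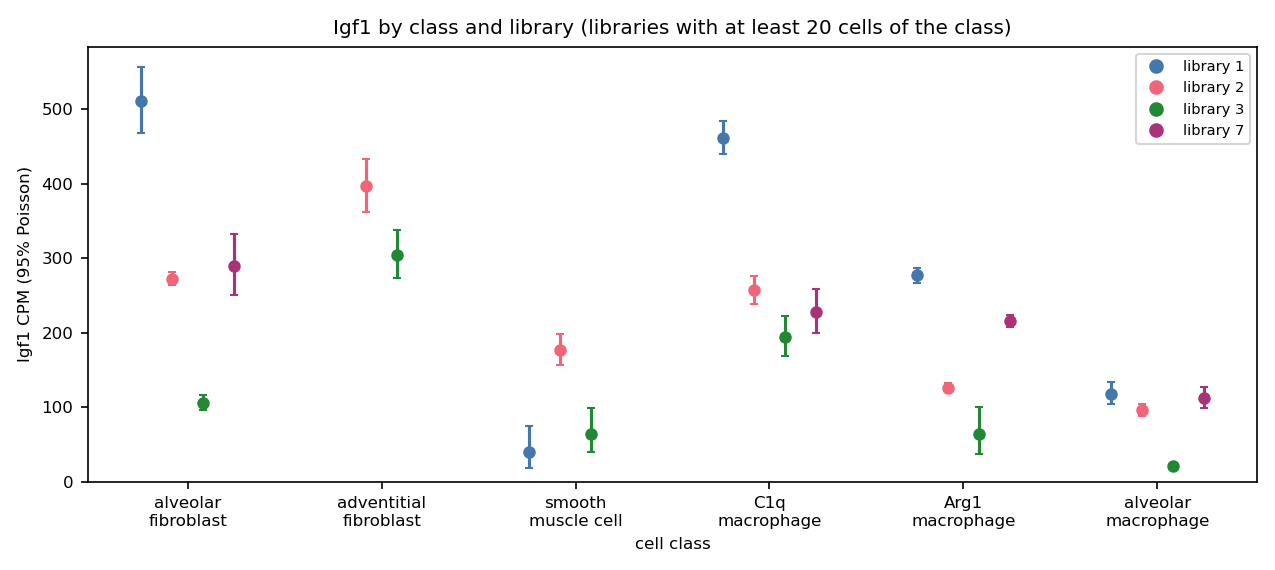
Igf1 level (CPM, exact 95% Poisson intervals) in fibroblast, smooth muscle and macrophage classes, colored by library number and shown for libraries with at least 20 cells of the class. Library 3 is the lowest point in every class but smooth muscle, where the intervals of libraries 1 and 3 overlap and myofibroblast-like cells are included. Library 1 is the highest in alveolar fibroblasts and all 3 macrophage classes.

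Classes made of several clusters could differ because the clusters differ, so Igf1 was followed within clusters. The larger of the 2 alveolar fibroblast clusters (1507 of 1680 cells) had 538, 292, 131 and 306 CPM. The main alveolar macrophage cluster (1127 cells) had 122, 93.6, 21.8 and 113 CPM, and the next (267 cells) had 119, 96.7, 22.1 and 114, so the low value of library 3 stood in both. The 3 clusters of Arg1 macrophages were spread unevenly over libraries. In the one that library 2 dominated Igf1 was 134.9, 115 and 135 CPM in libraries 1, 2 and 7, and in the one that libraries 1 and 7 mostly filled it was 384, 210.2 and 315. In the third (554 cells, mostly of library 1) it was 181 (170.4 to 192.9) in library 1 and 242 (210.7 to 276.2) in library 7. Library 1 was thus above library 7 in the class and in 1 cluster, level with it in another and below it in the last. Library 3 had under 20 cells in each of these clusters, so that its low class value could not be followed within them.

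When the 2328 mesenchymal cells were clustered on their own, a step added after the data were seen, a small myofibroblast-like cluster of 41 cells came out, marked by Hhip, Aspn and Lgr6. It had lain almost whole (40 cells) in the smooth muscle class. It carried the highest level of 4 members among the classes of that clustering: Igf1 at 740.4 CPM (642.5 to 849.0), Wnt5a at 325 (261.4 to 399.5), Bmp5 at 246 (190.7 to 311.3) and Fgf7 at 166 (121.6 to 221.6). For Bmp5 and Fgf7 the intervals overlapped those of alveolar fibroblasts, which were at 191 and 150.2 CPM. Tgfb2 stood at 256 there, and no Wnt2 UMI was found, which allows up to 10.8 CPM (3 counts of the cluster's total). The 156 smooth muscle cells of that clustering had Igf1 at 26.5, Wnt5a at 7.87 and Fgf7 at 18.6 CPM. They are not the whole rest of the 254-cell smooth muscle class, of which 28 cells fell in a cluster with neutrophil genes and 12 in one named pericyte. Of the cells of the myofibroblast-like cluster 27 came from library 2, so a comparison of libraries was not made. The smooth muscle values by library given above include these cells.

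**Figure D5:**
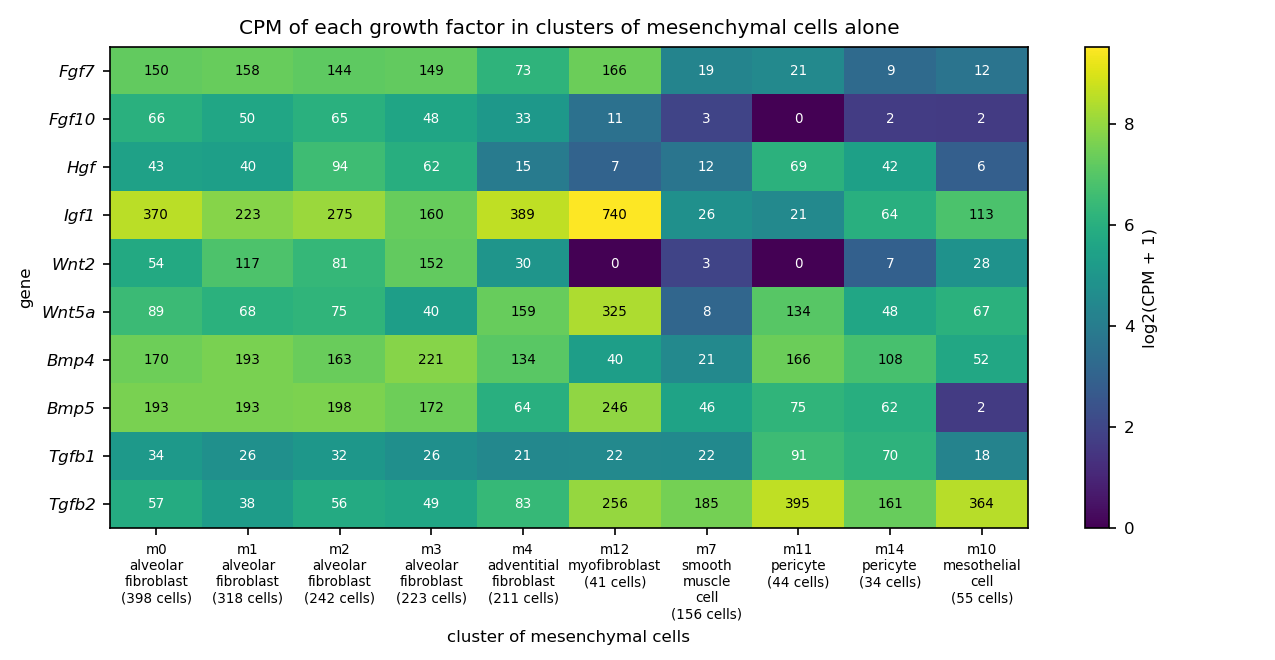
Level of each growth factor (CPM printed, color on the log2(CPM + 1) scale) in 10 clusters of mesenchymal cells clustered alone, named m0 to m14 in order of size, each with its class name and cell number. Cluster m12, the myofibroblast-like cells, stands out for Igf1 and Wnt5a and has no Wnt2. Among the alveolar fibroblast clusters, Igf1 falls and Wnt2 rises in the order m0, m2, m1 and m3.

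The same clustering divided 1181 alveolar fibroblasts into 4 clusters in which Wnt2 and Igf1 ran in opposite order. The largest (m0, 398 cells, led by Timp1, Clec11a and Gdf10) had Wnt2 at 54.5 CPM and Igf1 at 369.6, and another (m3, 223 cells, led by Slc7a10 and with Fgfr4) had 152 and 159.5. Between them lay m2 (242 cells, led by Il6 and Cxcl1) with 80.7 and 275, and m1 (318 cells, led by Fat3 and C6) with 117 and 223. Slc7a10 and Fgfr4 were among the leading genes of m1 too. In m3, marker genes of erythroid cells scored slightly higher (1.75) than those of alveolar fibroblasts (1.74). Fgf7 was nearly level over these clusters, at 144 to 158 CPM. Hgf was highest in the Il6 and Cxcl1 cluster, at 93.7 CPM (83.4 to 104.8), against 40.2 to 62.0 in the others. That cluster held 11, 113, 114 and 4 cells of libraries 1, 2, 3 and 7. Whether the Hgf difference between libraries comes from the uneven makeup of the 4 clusters was not tested. Within these clusters Igf1 was lowest in library 3 wherever 20 or more cells allowed a comparison. It was 589, 392 and 142 CPM in libraries 1, 2 and 3 in m0, 244, 57.3 and 144 in libraries 2, 3 and 7 in m1, 338 and 167 in libraries 2 and 3 in m2, and 201 and 56.5 in m3. The other library differences did not all carry over, since library 7 was below library 2 in m1 but not in the class. Wnt2 was higher in library 3 than in library 2 in each of the 4, with 36.5 and 129 CPM in libraries 2 and 3 in m0, 107 and 178 in m1, 63.6 and 98.0 in m2 and 132 and 210.5 in m3. Library 1 was above library 2 for both genes in m0, where it had Wnt2 at 67.1 CPM. Other clusters of that second clustering carried genes of another lineage (206 cells with endothelial, 183 with neutrophil, 58 with macrophage and 18 with B cell genes) or were of low depth (101 cells). A further 28 cells of the alveolar fibroblast class fell in the adventitial cluster. The 1181 alveolar fibroblasts of that clustering had the following values. Tgfb1 in alveolar fibroblasts was 30.6 CPM in place of 51.5, and Hgf was 57.2 in place of 51.5. By library, Igf1 was then 504, 309.6, 134 and 310.0 CPM, still called at 3.77-fold, and Hgf and Wnt2 were still called at 3.03-fold and 2.48-fold. Wnt5a lost its call, and Tgfb1 gained one, with 53.0 CPM in library 1 and 24.2 in library 3 (2.19-fold, in place of 1.16-fold).

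Receptors and other pathway genes were read from 14 lists of 122 symbols. The matrix held 120, and 112 passed 100 UMIs, of which 56 were highest in a mesenchymal class, 24 in an endothelial and 14 in an epithelial class. Of all 14885 genes with at least 100 UMIs, 21.3%, 16.9% and 14.9% were highest in these lineages. The lists too were chosen with earlier results of these data known. A highest class is the one with the highest CPM, and for 51 of the 112 its interval overlapped that of the next class. From the next class of another lineage, 45 of the 56, 16 of the 24 and 10 of the 14 were apart. The share of all genes apart in this way was not worked out. These counts, and those given below for single lists, therefore have no background beside them. Among FGF receptors, Fgfr2, the receptor of FGF7 and FGF10, was highest in type 2 cells at 293 CPM (280.1 to 306.0) and stood at 11.2 in alveolar fibroblasts. Fgfr1 was highest in adventitial fibroblasts (227), with eosinophils at 218 inside its interval, Fgfr3 in aerocytes, the capillary cells of gas exchange (184), and Fgfr4 in alveolar fibroblasts (55.4). The FGF target Etv5 followed Fgfr2 into type 2 cells, at 508 CPM, and Spry2, a feedback inhibitor, was highest in NK cells (317). All 4 other FGF ligands were highest in the mesenchyme, among them Fgf2 in alveolar fibroblasts (57.8) and Fgf1 in mesothelial cells (129.5), whose interval overlapped that of aerocytes (107). Met, the HGF receptor, was highest in type 2 cells at 112 CPM, and 4 of the 6 measured genes of its list were highest in an epithelial class, beside 14.9% of all genes, 3 of them apart from other lineages. Among these was the protease inhibitor Spint2, highest in ciliated cells (567), whereas the related Spint1 was highest in type 1 conventional dendritic cells (92.8). Mesothelial values in this and the next paragraphs include the type 1-like cells of that class.

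Igf1r was highest in basophils or mast cells (581) and eosinophils (497), at 10.6 CPM in type 2 cells, while the insulin receptor Insr peaked in large-vessel endothelial cells (157) and Igf2r in pericytes (111), close to adventitial fibroblasts (102). Among the IGF binding proteins, Igfbp5 and Igfbp6 were highest in mesothelial cells, at 7493 and 3656 CPM. Of 13 WNT receptors, 9 were highest in a mesenchymal class, beside 21.3% of all genes, and 5 of these were apart from other lineages, namely Fzd1, Fzd2, Fzd7, Ror2 and Ryk. The classes were Fzd1 (172), Fzd8 (22.5) and Lrp5 (85.0) in pericytes, Fzd2 (115) in adventitial fibroblasts, Fzd5 (40.8) and Fzd7 (64.4) in mesothelial cells, Ror1 (22.3) in smooth muscle cells, and Ror2 (12.5) and Ryk (216) in alveolar fibroblasts. Fzd8 rested on 14 UMIs (12.3 to 37.7), and Lrp5 (63.7 to 111.2) was level with aerocytes at 82.6. Fzd4 (317) and the co-receptor Lrp6 (124, with pericytes at 111) were highest in general capillary cells, Fzd6 (104) in large-vessel endothelial cells and Fzd3 (41.8) in ciliated cells. Other WNT ligands were Wnt4 in pericytes (179.7, with ciliated cells at 158) and Wnt11 in ciliated cells (98.9), and among modulators Nkd1 stood highest in aerocytes (485) and the secreted inhibitor Sfrp2 in mesothelial cells (419).

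Of 8 BMP receptors, 6 were highest in an endothelial class, beside 16.9% of all genes, and 3 of these (Bmpr2, Acvrl1 and Eng) were apart from other lineages. Bmpr2 peaked in general capillary cells at 1496 CPM, Acvrl1 and Eng in aerocytes at 1673 and 1036, Acvr2b in aerocytes (26.4), and Acvr1 (29.3) and Acvr2a (52.1) in lymphatic endothelial cells, the last 3 with intervals that overlapped those of mesenchymal classes. Bmpr1a was highest in mesothelial cells (148), with smooth muscle cells at 144, and Bmpr1b in club cells (17.9). Other BMP ligands were Bmp6, highest in general capillary cells (403), and Bmp3, highest in alveolar fibroblasts (300), and among inhibitors and targets Gpc3 was highest in mesothelial cells (1608) and Id3 in alveolar fibroblasts (1398). For TGF-beta, Tgfbr1 was highest in C1q macrophages (233), with plasmacytoid dendritic cells at 193, Tgfbr2 in lymphatic endothelial cells (1086) and Tgfbr3 in adventitial fibroblasts (215). Ltbp4, which tethers latent TGF-beta, was highest in adventitial fibroblasts (1153), with lymphatic endothelial cells at 1068, and Thbs1, an activator, in smooth muscle cells (981), with eosinophils at 904. Among targets, Tgfbi was highest in C1q macrophages (867) and Ski in eosinophils (770.5). Among EGF-family ligands, Hbegf was highest in pericytes (371) and Areg in ciliated cells (198).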

How the data were processed

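Single-cell suspensions of mouse lung were sequenced with a Chromium 3′ kit (version 3 per the labels, version 2 per the study's methods). The authors aligned reads with Cell Ranger 3.1.0, which runs STAR, to mm10, and deposited 1 matrix of UMI counts per gene and barcode for 7 libraries. No source used here maps library numbers to labels, so the matrix was treated as 1 pooled sample without tests. The members and gene lists were chosen with earlier results of these data known.

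Cells of libraries 1, 2, 3 and 7 with at most 10% mitochondrial UMIs were scaled to 10000 UMIs, reduced to 30 principal components of 2000 variable genes (members and pathway genes left out), aligned by mutual nearest neighbors and clustered by Leiden (leidenalg 0.10.2, resolution 0.8, 20 neighbors). Clusters were named from markers. Doublets were not removed in the main values. Intervals are exact 95% Poisson or binomial (scipy 1.17.1) and cover counting error only. Named genes were the members, every listed receptor, the 2 highest genes of each other list, and the 3 genes most like each member, of which 1 is not reported here. The scripts were tested on simulated data. The alternatives changed the cell filter, doublets (Scrublet in scanpy 1.11.5), alignment, resolution, components, class calling, weights and libraries.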

Additional observations from a re-analysis of the deposited data

Results flagged for a closer look

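Libraries 4, 5 and 6, which hold hemoglobin-rich cells and no lung epithelium by Sftpc, entered no comparison. There 5 members had more than 3 UMIs, the count used as a floor. Tgfb1 had 12723 UMIs (139 CPM) and Hgf 377 UMIs (4.11 CPM, with 6.28, 3.01 and 3.13 CPM in libraries 4, 5 and 6). Igf1 had 11 UMIs, Tgfb2 6 and Bmp4 4, each at 0.120 CPM or below.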

How the results depend on the processing

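The number of members highest in a mesenchymal class was 6 or 7 under every alternative run. It was 6 when cells were classed one by one, when each cell had equal weight, and without library 2, 3 or 7. The number with most of their UMIs in mesenchymal cells was 7 throughout. In the main values these included Bmp4 but not Igf1, unlike the 7 members highest in a mesenchymal class. The share of all genes with most UMIs in mesenchymal cells was not worked out. When mesenchymal cells were clustered again, an alternative chosen after seeing the data, 6 of 10 members kept their highest class, since Fgf7, Igf1, Wnt5a and Bmp5 were then highest in myofibroblasts. Without 1 library at a time, 8 to 10 members kept it, and the macrophage share of Igf1 ran from 54.3% to 81.2%, the latter without library 2, where the mesenchymal share was 15.1%. Members that differed between libraries in their highest class fell from 2 to 0 at a 3-fold limit. Members with a UMI in over 25% of cells of their highest class fell from 10 to 4 in cells thinned to 1500 UMIs. The share of all genes over 25% was not worked out at either depth, so these counts have no background beside them. Pairs of members whose interval left out 1 fell from 39 to 3. Of the single values, 167 moved by less than their interval and 135 by more. Scrublet called 728 of 20856 cells (3.49%), of which 198 were among the 2328 mesenchymal cells. The mesenchymal calls were uneven over libraries, with 5 of 142 cells in library 1, 173 of 1479 in library 2, 19 of 622 in library 3 and 1 of 85 in library 7. The main values by library include these cells. No paired analysis was possible because the matrix columns carry no replicate numbers and no result comes from a test.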
